A study of Mus musculus with 335 samples.

Results

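Among 65 single cells sorted from the mouse embryo as haematopoietic stem cells (HSC), those with much RNA of the granule enzyme gene Mpo were set against those with almost none. The cells were wild-type, came at E11.5 from the embryonic region of aorta, gonad and mesonephros (AGM), and were sorted by EPCR (the product of Procr) and CD45 (the product of Ptprc) after collagenase treatment. A level is given as CPM, the estimated count of a gene divided by the cell's total and multiplied by 1000000. Cells with at least 50 CPM of Mpo are called Mpo-high (35 cells), cells from 5 to under 50 CPM middle (22 cells) and cells under 5 CPM Mpo-low (8 cells), so that 43 of the 65 cells were compared. The members were chosen by these measured Mpo levels, which are therefore no finding. The labels do not name the embryo or litter behind a cell, all 65 cells come from 1 sequencing pool, and the classes were cut from the cells' own RNA. The pool is therefore 1 sample, no test or p-value was computed, and each class is a range of Mpo level and not a cell type. Full-length libraries were made with Smart-seq2. The other 270 cells, sorted as Dorsal, Ventral and Mesenchymal cells of the same region, serve here only to show the Mpo level outside the HSC gate.

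Mpo encodes myeloperoxidase, the haem enzyme of the primary (azurophil) granules of neutrophils and their precursors. In adult blood formation its transcription is switched on in early myeloid progenitors, where the ETS factor PU.1 (Spi1) and Myb are among its known activators, and Prtn3, the gene of the granule protease proteinase 3, is switched on in the same cells. At E11.5 the first HSC form from the endothelium of the dorsal aorta, and the cells that leave the endothelium keep endothelial RNA for some time. Mpo lies at chr11:87793581-87804413 and Prtn3 at chr10:79874476-79883174, both on the plus strand of GRCm38.

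The promoters of these 2 granule genes are shown because the classes rest on Mpo and because Prtn3 was found in 31 of the 35 Mpo-high cells. Each run holds the 250 bases before and the 50 bases after the start that RefSeq gives on GRCm38.p6 (Mpo chr11:87793534-87793833, Prtn3 chr10:79879417-79879716, plus strand). The gene coordinates above are from GENCODE, which places the start differently. Its start lies inside the window for Mpo and upstream of the window for Prtn3. Capitals mark the letters AGGAAG, the core of PU.1 sites, and in Mpo also TAACNG, the core of Myb sites, on either strand.
Mpo: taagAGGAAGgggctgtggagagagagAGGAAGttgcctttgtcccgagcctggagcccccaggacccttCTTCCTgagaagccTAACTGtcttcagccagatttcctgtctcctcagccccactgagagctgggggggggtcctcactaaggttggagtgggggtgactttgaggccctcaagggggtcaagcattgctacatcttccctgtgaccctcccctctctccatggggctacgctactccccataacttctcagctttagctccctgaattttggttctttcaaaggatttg
Prtn3: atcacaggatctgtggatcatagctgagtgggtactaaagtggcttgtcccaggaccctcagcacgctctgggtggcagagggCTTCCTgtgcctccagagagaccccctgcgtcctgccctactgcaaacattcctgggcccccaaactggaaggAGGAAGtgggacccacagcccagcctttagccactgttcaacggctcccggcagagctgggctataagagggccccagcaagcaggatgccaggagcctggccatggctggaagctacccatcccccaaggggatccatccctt
AGGAAG was found 3 times in the Mpo window and 2 times in the Prtn3 window, and TAACNG 1 time in the Mpo window and not in that of Prtn3. The letters of RUNX sites (TGTGGT or TGCGGT) and of C/EBP sites (TTGCNNAA) were also searched and found in neither window. Of all 32851 RefSeq windows of this length, 35.4% hold AGGAAG and 23.3% hold TAACNG, so such matches are common and describe the letters only.

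Mpo itself covered a wide range, and these values chose the classes. The lowest, median and highest Mpo level were 51.3, 180 and 6164 CPM in Mpo-high cells, 5.52, 13.6 and 36.4 CPM in middle cells, and 0, 2.03 and 4.97 CPM in Mpo-low cells. The levels formed a slope without a gap at either limit: 17 cells lay within a factor of 2 of the upper limit (11 above, 6 below) and 10 within a factor of 2 of the lower limit (7 above, 3 below). At the upper limit, HSC 19 (51.3 CPM) and HSC 47 (61.1 CPM) were just inside the Mpo-high class, and HSC 48 (36.4 CPM) and HSC 6 (33.3 CPM) just outside it. At the lower limit, HSC 46 (4.97 CPM) and HSC 30 (4.93 CPM) were just inside the Mpo-low class, and HSC 12 (5.52 CPM) and HSC 16 (7.52 CPM) just outside it.

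**Figure D1:**
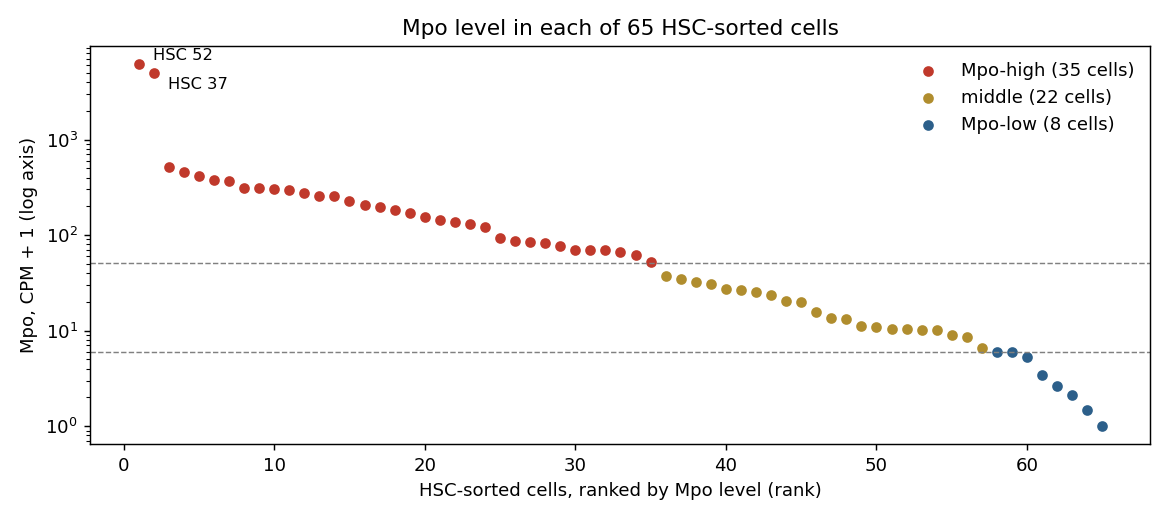
Mpo level (CPM + 1, log axis) of each of the 65 HSC-sorted cells, ranked from the highest, with dashed lines at the 2 limits of 50 and 5 CPM and colours for the 3 classes. HSC 52 and HSC 37 stand above all others at 6164 and 4957 CPM, and the other cells fall on a slope from 516.9 CPM down to 0.

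HSC 52 and HSC 37 stood apart and together held 55.2% of the Mpo counts of the Mpo-high class. Their Mpo levels were 6164 and 4957 CPM, against 516.9 CPM in HSC 18, the next highest cell, and the other 33 Mpo-high cells ran over 51.3, 169 and 516.9 CPM (lowest, median, highest). Each of them also had some granule or mast cell genes at levels above those of the other 33 cells, and the main results on such genes are also given without them.

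HSC 52 carried RNA of neutrophil genes, some of them granule genes. S100a8 and S100a9, the genes of the calprotectin subunits of neutrophils, were at 10434 and 10627 CPM in HSC 52, against a highest value of 7.60 and 12.6 CPM in the other 33 Mpo-high cells. Stfa1, a neutrophil cystatin gene, reached 5393 CPM in HSC 52 and at most 10.7 CPM in those 33 cells. Prtn3 was at 2677 CPM in HSC 52, against at most 290 CPM in those cells. Ms4a3, a marker gene of granulocyte-monocyte progenitors, was at 687 CPM in HSC 52, the haptoglobin gene Hp at 698 CPM, and Fcnb, the gene of a granule ficolin, at 528 CPM. Those 3 genes reached at most 96.3, 1.55 and 1.96 CPM in the other 33 cells. HSC 52 also held stem cell and endothelial RNA, with Mecom at 174 CPM, Procr at 125 CPM, Cdh5 at 101 CPM and Sox17 at 95.9 CPM, and it had the most genes detected of all Mpo-high cells (8828). Whether HSC 52 holds more than 1 cell was not tested.

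HSC 37 carried mast cell and basophil RNA. Cpa3, the mast cell carboxypeptidase gene, was at 796 CPM in HSC 37, against at most 6.43 CPM in the 33 other cells. Hdc, which encodes the enzyme that makes histamine, was at 1631 CPM in HSC 37, against 0, 0.91 and 712.2 CPM (lowest, median, highest) in those 33 cells. The IL-33 receptor gene Il1rl1 stood at 307 CPM and Srgn, the gene of the granule proteoglycan serglycin, at 5277 CPM, against at most 42.99 and 905 CPM in the 33 cells. The Fc receptor gene Fcgr3 was at 4071 CPM in HSC 37 and at most 143 CPM in the 33 cells. Kit, Procr and Cdh5 were listed at 0 in HSC 37 and Cd34 was at 87.1 CPM, while all of the 33 other Mpo-high cells had at least 63.3 CPM of Kit and 312 CPM of Cd34. HSC 37 thus came from the EPCR and CD45 gate with Procr listed at 0. The same held for HSC 2, another Mpo-high cell, and HSC 5, a middle cell.

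**Figure D2:**
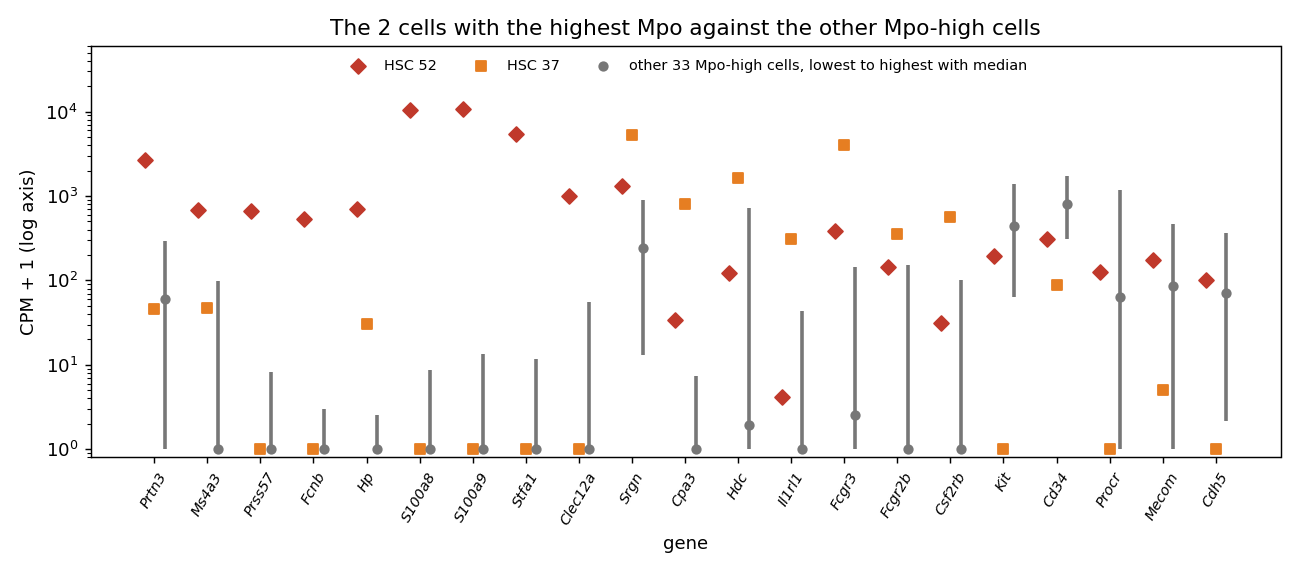
Level (CPM + 1, log axis) of 21 granule, neutrophil, mast cell, receptor, stem cell and endothelial genes in HSC 52 (diamonds), HSC 37 (squares) and the other 33 Mpo-high cells (grey line from the lowest to the highest cell, dot at the median). S100a8 and S100a9 stand at 10434 and 10627 CPM in HSC 52, Cpa3 reaches 796 CPM in HSC 37 against at most 6.43 CPM in the 33 cells, and of these 35 cells only HSC 37 has Kit at 0.

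Low counts of 2 genes that were very high in HSC 52 were found in the wells that share its i7 or i5 index. S100a8 was above 0 in all 15 sharing wells, with a median of 2.98 counts and a highest of 12.1 counts, against 7 of 49 other wells with at most 1.01 counts. S100a9 was likewise above 0 in all 15 of these wells and in 6 of 49 others. The highest S100a8 count in a sharing well was 0.111% of the count in HSC 52. The 8 Mpo-low cells had 0 to 4.45 Mpo counts, and none of them shares an index with HSC 52 or HSC 37. Of the 27 cells that share an index with either, 17 were Mpo-high and 10 middle (Mpo 5.52, 68.9 and 453 CPM), and of the 36 that share none, 16 were Mpo-high, 12 middle and 8 Mpo-low (0, 31.6 and 516.9 CPM). The source of these counts, and their part in the class of a cell, was not tested, and several results below are also given, with every cell weighted equally, for the 16 Mpo-high and 8 Mpo-low cells that are neither of these 2 cells nor share an index with them.

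Depth differed between and within the classes. Total counts per cell (lowest, median, highest) were 391320, 1093022 and 4692503 in Mpo-high cells, 313361, 738500 and 3745065 in middle cells, and 276480, 908302 and 7093614 in Mpo-low cells, and Mpo level and total count had a Spearman correlation of 0.31 over the 65 cells. The median number of genes detected was 7743 in Mpo-high, 7060 in middle and 7391.5 in Mpo-low cells, and the median share of mitochondrially encoded counts was 4.48%, 3.73% and 4.62% in the same order of classes. HSC 23, a Mpo-low cell, was the deepest HSC cell with 7093614 counts and held 54.6% of all counts of its class. It was also unlike the other 7 Mpo-low cells, with Mki67 at 649 CPM against at most 3.21 CPM in them, and Procr at 0.13 CPM against at least 111 CPM. Values of the Mpo-low class from summed counts are thus to a large part values of HSC 23, so the ratio without it is also given for many of the lists and genes below. At least 5 counts of a Y-linked gene were found in 31 of 35 Mpo-high, 18 of 22 middle and 7 of 8 Mpo-low cells.

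Over all genes the classes differed in many genes, mostly with more RNA in Mpo-high cells. Within each class the counts of its cells were added up and turned into CPM, and the ratio is log2 of (CPM + 1) in Mpo-high over Mpo-low cells, which understates the difference of genes with few counts. Of 10871 genes with at least 100 counts over both classes, 3862 (35.5%) had a level at least 2-fold higher and 1281 (11.8%) one at least 2-fold lower in Mpo-high cells, and the median log2 ratio of all genes was 0.47. TMM scaling of the 2 sums gave 3037 higher (27.9%) and 1893 lower (17.4%), with a median of 0.13. Without HSC 23 the counts were 2916 higher (27.1%) and 1230 lower (11.4%), and with every cell weighted equally 2763 (25.4%) and 963 (8.86%). Without HSC 37 and HSC 52 they were 3757 (34.9%) and 1289 (12%). With equal weights, 27.3% were higher and 9.37% lower without these 3 cells, and 24% and 11.1% without HSC 37, HSC 52 and the cells that share an index with them. Odd i7 indices gave 37.1% higher and 13% lower, and even ones 43.2% and 15%. The shares were 21.5% and 9.19% after thinning to equal depth, 21.4% and 8.28% with the deposited log2 values, and 17.1% and 7.61% with 10 CPM added in place of 1. Against all cells below 50 CPM they were 16% and 9.79%, and cells with at least 100 CPM against the single cell with 0 Mpo counts gave 77.6% and 7.48%. In no gene other than Mpo did all Mpo-high cells lie above all Mpo-low cells or below them (0 of 10871, 0% in either direction). A list of genes is read below against these shares and medians, and 95% limits on a summed level cover counting error only.

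The genes listed as granule genes, Mpo aside, were higher in Mpo-high cells mainly through HSC 52 and HSC 37. Some of them, such as Gstm1, Ms4a3, S100a8, S100a9 and Stfa1, are myeloid genes whose proteins are not granule contents. Of the 18 primary granule genes listed 10 had an entry, and 7 of these 10 were at least 2-fold higher and none 2-fold lower in Mpo-high cells, with a median log2 ratio of 3.38 (3.23 with the 3 genes at 0 in Mpo-low cells set to a floor of 3 counts). Without HSC 37 and HSC 52, 6 of the 10 genes still had 100 counts, of which 3 were higher and 1 lower. With all cells weighted equally and HSC 23 also left out, only Prtn3 of 6 was higher, and the median was 0.18. The neutrophil elastase and cathepsin G genes, Elane and Ctsg, were on the list but had no entry under their symbols in the deposited counts. S100a8, S100a9 and Stfa1, the 3 genes with 100 counts on the list of later granule and neutrophil genes, had 100 counts only with HSC 52 in the class.

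Prtn3 differed also among the other cells. Its lowest, median and highest levels were 0, 58.9 and 2677 CPM in Mpo-high cells, 0, 23.3 and 240 CPM in middle cells, and 0, 12.6 and 67.3 CPM in Mpo-low cells. The ranges overlapped, and 1 Mpo-low cell, HSC 3 with 67.3 CPM, lay above the Mpo-high median. From summed counts it was at 141 CPM (138 to 145) in Mpo-high and 6.35 CPM (5.05 to 7.87) in Mpo-low cells, a log2 ratio of 4.27. This ratio was 3.54 without HSC 37 and HSC 52, 3.25 without HSC 23, 1.79 with equal weights and without all 3, and 2.16 without the cells that share an index with HSC 37 or HSC 52. With each cell thinned to 430000 counts, 32 of 34 Mpo-high cells (94.1%, exact 95% limits 80.3 to 99.3) and 4 of 7 Mpo-low cells (57.1%, 18.4 to 90.1) had at least 5 counts of Prtn3, against 88.6% and 62.5% of all cells before thinning. Counts were rounded before thinning but not for the latter shares, so a cell just under 5 counts could pass only after rounding.

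The other genes of the primary granule list differed among themselves. Ctsc, whose protease activates the granule serine proteases, was at 59.02 CPM in Mpo-high and 60.2 CPM in Mpo-low cells. Gstm1, a glutathione transferase gene of myeloid progenitors, was at 44.8 CPM in Mpo-high and 88.4 CPM in Mpo-low cells, a log2 ratio of -0.97. Ms4a3 was at 31.8 CPM in Mpo-high and 1.14 CPM in Mpo-low cells, a log2 ratio of 3.94 that was 2.99 without HSC 37 and HSC 52, 2.59 with equal weights and 0.88 with equal weights and without the 3 cells. It had a median of 0 CPM in each class and at least 5 counts in 9 of 35 Mpo-high, 5 of 22 middle and 1 of 8 Mpo-low cells. Of the 6 NADPH oxidase genes with 100 counts, which serve the oxidant burst that feeds myeloperoxidase, 1 was higher and none lower. Among the 8 haem synthesis genes, 3 were higher and 2 lower, and without HSC 23 the numbers were 3 and 0. The shares over all genes were 35.5% and 11.8%, or 27.1% and 11.4% without HSC 23.

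Genes of G2 and M phase differed by setting, and the summed counts, of which HSC 23 holds much, showed little difference. Mpo-high cells had a summed level of the 22 listed genes of 82.8, 2617 and 11000 CPM (lowest, median, highest), middle cells 65.6, 365 and 7848 CPM, and Mpo-low cells 69.7, 250 and 5769 CPM. The 5769 CPM belong to HSC 23, and the other 7 Mpo-low cells had at most 456 CPM. From summed counts Mpo-high cells had 8 of the 22 genes 2-fold higher and 1 lower, close to the share over all genes, with a median log2 ratio of 0.50. Without HSC 23, all 22 of 22 were higher, with a median of 4.75 against 0.24 for all genes. With every cell weighted equally, HSC 23 included, 19 were higher and none lower, with a median of 2.02 against 0.26 for all genes. Without the cells that share an index with HSC 37 or HSC 52, 21 were higher and none lower, with a median of 2.30. The cells with even i7 index, HSC 23 among them, gave 8 higher and 2 lower with a median of 0.09 against 0.69 for all genes, and those with odd i7 index gave 21 and 0 with 4.70 against 0.48.

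The summed level of the 22 genes had a gap between 752 and 1281 CPM in the 65 cells, and a limit of 1000 CPM was set after the values were seen. At or above it were 23 of 35 Mpo-high cells (65.7%), 7 of 22 middle cells (31.8%) and 1 of 8 Mpo-low cells (12.5%). In 12 Mpo-high cells the level was below the limit, so Mpo was also high in cells with little G2 and M phase RNA. HSC 25 was such a cell, with 373 CPM of Mpo and 82.8 CPM for the 22 genes together, the lowest sum of its class. The 31 cells above the limit had a median Mpo level of 131 CPM and a median total of 1113560 counts, against 20.6 CPM and 813507 counts in the 34 cells below it. The part of depth in this difference was not tested, and the values above are in CPM.

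**Figure D3:**
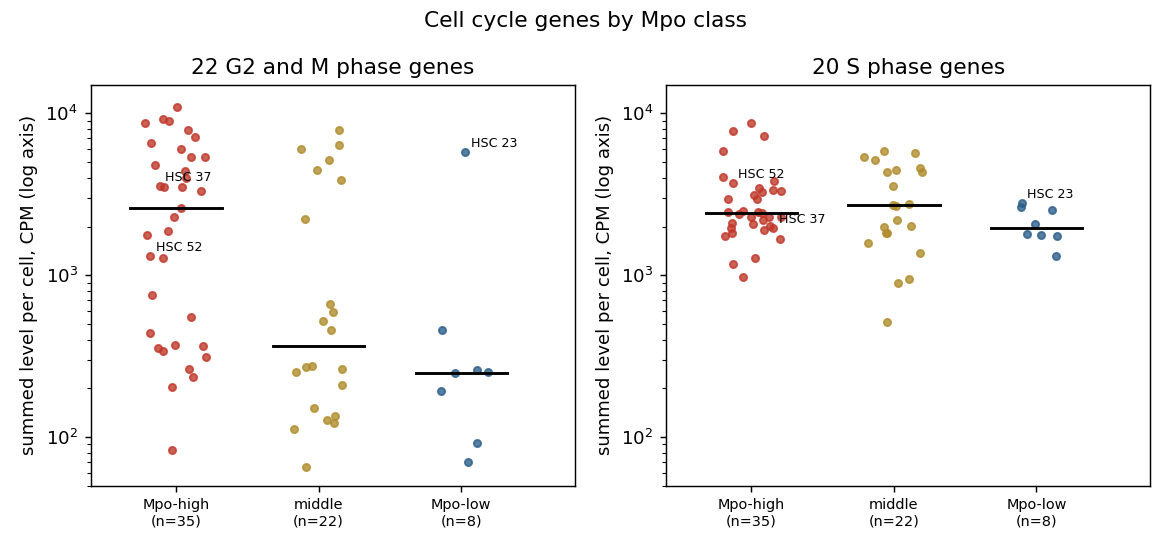
Summed level (CPM, log axis) of the 22 G2 and M phase genes (left) and the 20 S phase genes (right) in each cell by Mpo class, with a black line at each class median. For G2 and M phase genes the medians are 2617 CPM in Mpo-high, 365 CPM in middle and 250 CPM in Mpo-low cells, with HSC 23 at 5769 CPM apart from the other Mpo-low cells, and for S phase genes the medians are 2425, 2700 and 1945 CPM in the same order of classes.

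Mki67, at chr7:135689784-135716361 on the minus strand, encodes the Ki-67 protein that coats mitotic chromosomes. Its lowest, median and highest levels were 0.33, 194 and 836 CPM in Mpo-high cells, 0, 3.97 and 476 CPM in middle cells, and 0, 1.67 and 649 CPM in Mpo-low cells. Apart from HSC 23 every Mpo-low cell lay at or below 3.21 CPM, near the bottom of the Mpo-high range. From summed counts Mki67 was at 309 CPM in Mpo-high and 355 CPM in Mpo-low cells, a log2 ratio of -0.20, which became 6.81 without HSC 23 and 1.48 with equal weights. After thinning, 26 of 34 Mpo-high cells (76.5%, 58.8 to 89.3) and 1 of 7 Mpo-low cells (14.3%, 0.36 to 57.9) had at least 5 counts.

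Of the kinase genes in the list, Aurkb, Plk1 and Ttk were low in HSC 23 too, with at most 0.72 CPM there, while Cdk1 (251 CPM), Aurka (146 CPM), Bub1b (128 CPM) and Bub1 (35.7 CPM) were high in it. Aurkb, the kinase gene of the chromosomal passenger complex at chr11:69045647-69051664 on the plus strand, had 0, 29.8 and 423 CPM in Mpo-high cells, 0, 0.97 and 288 CPM in middle cells, and 0, 0.16 and 3.02 CPM in Mpo-low cells. No Mpo-low cell had 5 counts of it, while 21 of 35 Mpo-high and 7 of 22 middle cells did. The summed level was 74.3 CPM (71.9 to 76.8) in Mpo-high and 0.72 CPM (0.33 to 1.35) in Mpo-low cells, a log2 ratio of 5.46, and 5.09 with equal weights, 5.10 without HSC 23 and 5.53 without the index-sharing cells. Plk1, the polo-like kinase that drives mitotic entry, was at 66.3 CPM in Mpo-high and 1.37 CPM in Mpo-low cells (log2 ratio 4.83, or 4.41 without HSC 23). Ttk, the kinase gene of the spindle checkpoint, was at 44.2 CPM in Mpo-high and 0.36 CPM in Mpo-low cells (5.05, or 5.08 without HSC 23). Kif11, the gene of a spindle motor, was the member that was lower, with 60.9 CPM in Mpo-high and 141 CPM in Mpo-low cells, and its log2 ratio of -1.20 became 5.28 without HSC 23.

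Promoters of the G2 and M phase genes are shown for Plk1 and Ccnb2, since the genes of this list were higher together in Mpo-high cells once HSC 23 was left out and such promoters are known for 2 shared elements, the CCAAT box bound by NF-Y and the cell cycle homology region (CHR) bound by the DREAM and B-Myb complexes. The windows are those of RefSeq on GRCm38.p6 (Plk1 chr7:122159185-122159484, plus strand, and Ccnb2, the cyclin B2 gene, chr9:70421505-70421804, minus strand). Capitals mark CCAAT and the CHR letters TTTGAA or TTCGAA on either strand, and no 2 of the marked matches overlap.
Plk1: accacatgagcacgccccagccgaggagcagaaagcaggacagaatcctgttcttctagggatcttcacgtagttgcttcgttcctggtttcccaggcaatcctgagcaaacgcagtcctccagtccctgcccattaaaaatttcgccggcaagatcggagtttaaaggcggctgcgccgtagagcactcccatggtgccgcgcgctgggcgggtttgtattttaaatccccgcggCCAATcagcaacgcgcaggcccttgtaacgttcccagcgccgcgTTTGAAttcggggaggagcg
Ccnb2: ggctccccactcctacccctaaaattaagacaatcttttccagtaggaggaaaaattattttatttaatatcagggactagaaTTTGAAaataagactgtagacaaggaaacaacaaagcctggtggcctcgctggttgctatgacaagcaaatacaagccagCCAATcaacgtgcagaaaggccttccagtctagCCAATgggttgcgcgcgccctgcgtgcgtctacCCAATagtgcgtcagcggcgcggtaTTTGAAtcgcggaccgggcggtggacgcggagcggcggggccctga
Plk1 holds CCAAT 1 time and the CHR letters 1 time, and Ccnb2 holds CCAAT 3 times and the CHR letters 2 times. Of the 22 listed genes 19 had a window, of which 17 hold CCAAT, 15 the CHR letters and 15 both. Over all 32851 windows these shares are 37.4%, 19.2% and 7.52%.

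S phase genes differed less than G2 and M phase genes in the levels of their class medians. The summed level of the 20 listed genes had medians of 2425 CPM in Mpo-high, 2700 CPM in middle and 1945 CPM in Mpo-low cells, with ranges that overlapped. From summed counts 9 of 20 were higher and none lower in Mpo-high cells, with a median log2 ratio of 0.93. The values over all genes were 35.5%, 11.8% and 0.47. Without HSC 23, 13 of the 20 were higher and none lower, against 27.1% and 11.4% over all genes. Cdc45, a subunit gene of the replicative helicase, was at 51.4 CPM in Mpo-high and 1.06 CPM in Mpo-low cells (log2 ratio 4.67, or 4.05 without HSC 23 and 2.89 with equal weights). Ccne1, the cyclin E1 gene, was at 48.4 CPM in Mpo-high and 2.67 CPM in Mpo-low cells (3.75, or 3.22 and 2.18 in the same 2 settings). E2f1, the S phase transcription factor gene, was at 21.7 CPM in Mpo-high and 0.78 CPM in Mpo-low cells (3.67, or 4.01 and 3.69). Among the 6 genes of the MCM helicase ring only Mcm5 (1.76) and Mcm7 (1.68) were 2-fold higher, of which Mcm5 had 0.68 and Mcm7 1.39 without HSC 23, and Mcm3 was at 329 CPM in Mpo-high and 403 CPM in Mpo-low cells.

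The D cyclins and inhibitors of cyclin-dependent kinases showed a mixed picture, with 2 of 9 higher and none lower. The shares over all genes were 35.5% and 11.8%. Ccnd3, the cyclin D3 gene, was at 491 CPM in Mpo-high and 194 CPM in Mpo-low cells, a log2 ratio of 1.34 that became 0.36 without HSC 23. Cdkn1c, which encodes the inhibitor p57, had medians of 157 CPM in Mpo-high, 267 CPM in middle and 334 CPM in Mpo-low cells. Its log2 ratio was -0.65 from summed counts, -1.25 with equal weights and -1.57 without HSC 23.

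**Figure D4:**
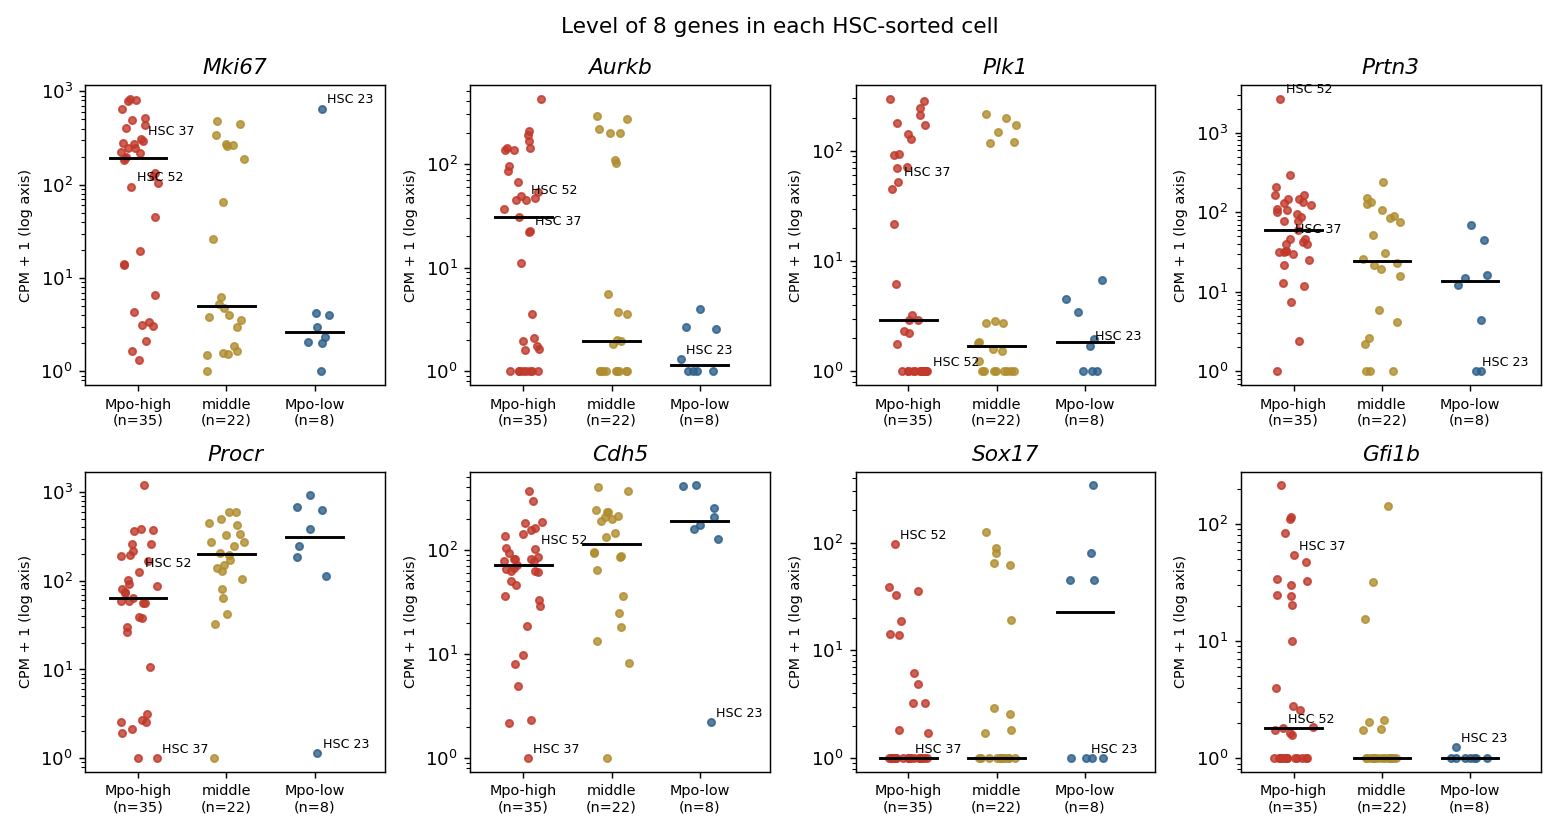
Level (CPM + 1, log axis) of 8 genes in each of the 65 cells by Mpo class, with a black line at each class median and HSC 52, HSC 37 and HSC 23 labelled. Mki67 has medians of 194, 3.97 and 1.67 CPM and Procr of 62.3, 201 and 312 CPM in Mpo-high, middle and Mpo-low cells, and in every panel the classes overlap.

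More endothelial genes were lower than higher in Mpo-high cells. The 32 listed genes had a summed level of 316, 2082 and 7185 CPM (lowest, median, highest) in Mpo-high cells, against a median of 2864 CPM in middle cells and 1228, 3617 and 6575 CPM in Mpo-low cells. The lowest Mpo-low value was again that of HSC 23, and the other 7 cells had a median of 4465 CPM. Of the 30 genes with 100 counts, Mpo-high cells had 2 that were 2-fold higher and 8 that were 2-fold lower, with a median log2 ratio of -0.46 against 0.47 for all genes. Without HSC 23 the numbers were 1 higher and 19 lower with a median of -1.39, with equal weights 2 and 10 with -0.74, and without the index-sharing cells 1 and 17 with -1.09. The cells with even i7 index alone gave 6 higher and 6 lower, and those with odd i7 index 5 higher and 16 lower, with 4 Mpo-low cells in each.

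Sox17, the arterial transcription factor gene at chr1:4490931-4497354 on the minus strand, had 0, 0 and 95.9 CPM in Mpo-high cells, 0, 0 and 124 CPM in middle cells, and 0, 21.8 and 339 CPM in Mpo-low cells. It had at least 5 counts in 8 of 35 Mpo-high, 6 of 22 middle and 4 of 8 Mpo-low cells. The log2 ratio from summed counts was -2.66, and -3.78 without HSC 23, but 1.95 in the cells with even i7 index, so its direction rests on few Mpo-low cells. Gja4, the arterial connexin 37 gene, was at 11.6 CPM in Mpo-high and 53.8 CPM in Mpo-low cells (log2 ratio -2.12, or -3.24 without HSC 23, where the Mpo-low level is 118 CPM). Dll4, the arterial Notch ligand gene, was at 3.40 CPM in Mpo-high and 18.6 CPM in Mpo-low cells (-2.16, or -3.25 without HSC 23). Nos3, the endothelial nitric oxide synthase gene, was at 0.69 CPM in Mpo-high and 8.13 CPM in Mpo-low cells (-2.43, or -3.48 without HSC 23).

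Genes of endothelium in general differed in how many cells held them. Kdr, the main VEGF receptor gene of endothelium, had 5 counts in 17 of 35 Mpo-high and 5 of 8 Mpo-low cells, and Cldn5, the gene of a tight junction protein, in 18 and 4. Cdh5, the VE-cadherin gene at chr8:104101625-104144511 on the plus strand, had medians of 70.4 CPM in Mpo-high, 113 CPM in middle and 190 CPM in Mpo-low cells, and at least 5 counts in 31 of 35, 20 of 22 and 8 of 8 cells of these classes. Its log2 ratio was -0.57 from summed counts, where it does not reach 2-fold, and -1.70 without HSC 23. Mmrn2, the gene of an endothelial matrix protein, had medians of 16.3 CPM in Mpo-high and 111 CPM in Mpo-low cells and log2 ratios between -1.64 and -2.13 with either weighting, in each index parity and with or without the 3 cells and the index-sharing cells. Flt1, a VEGF receptor gene, was 2-fold lower (-2.02) only through HSC 23, and its ratio without that cell was -0.18. Ets1 (2.61) and Robo4 (1.47) were the 2 members higher in Mpo-high cells, and without HSC 23 Ets1 remained higher (1.66).

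HSC-associated genes had similar summed levels in all classes, and their median ratio lay below that of all genes. Their summed level had medians of 3368 CPM in Mpo-high, 3399 CPM in middle and 3541 CPM in Mpo-low cells. Of 30 genes 7 were higher and 6 lower in Mpo-high cells, with a median log2 ratio of 0.21. The values over all genes were 35.5%, 11.8% and 0.47. Without HSC 23 there were 4 and 4 of the 30, with a median of 0.14, against 27.1%, 11.4% and 0.24 over all genes. Mecom, a transcription factor gene needed for HSC, was at 99.5 CPM in Mpo-high and 86.2 CPM in Mpo-low cells, a log2 ratio of 0.21 that became -0.73 without HSC 23. Hlf, a further HSC transcription factor gene, was at 104 CPM in Mpo-high and 211 CPM in Mpo-low cells, a log2 ratio of -1.02 that became -0.56 without HSC 23.

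Procr, at chr2:155751117-155755471 on the plus strand, encodes the sorting antigen EPCR and was lower in Mpo-high cells. Its lowest, median and highest levels were 0, 62.3 and 1193 CPM in Mpo-high cells, 0, 201 and 604 CPM in middle cells, and 0.13, 312 and 924 CPM in Mpo-low cells. Most Mpo-high cells lay below all Mpo-low cells but HSC 23, while the highest single value was in a Mpo-high cell. The log2 ratio was -1.40 from summed counts, -1.56 with equal weights, -2.54 without HSC 23 and -1.85 without the index-sharing cells. Ptprc, the gene of the other sorting antigen CD45, had medians of 206 CPM in Mpo-high, 134 CPM in middle and 155 CPM in Mpo-low cells and a log2 ratio of 0.72, which was 0.05 without HSC 23 and -0.14 with equal weights.

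Gfi1b, a transcriptional repressor gene of blood formation at chr2:28609450-28621982 on the minus strand, was the HSC-associated gene with the greatest ratio. It had 0, 0.80 and 212 CPM in Mpo-high cells, 0, 0 and 142 CPM in middle cells, and 0, 0 and 0.24 CPM in Mpo-low cells. Only 13 of 35 Mpo-high and 3 of 22 middle cells had at least 5 counts, and no Mpo-low cell did. After thinning the share was 35.3% of 34 Mpo-high cells (19.7 to 53.5) and 0 of 7 Mpo-low cells (upper limit 40.96%). The ratio of summed CPM was 207 with exact 95% limits of 57.3 and 1713, since the Mpo-low class held 2 counts. Runx1, the factor gene needed for HSC to form, was at 245 CPM in Mpo-high and 82.5 CPM in Mpo-low cells (log2 ratio 1.56, or 1.71 without HSC 23 and 0.95 with equal weights).

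Among stem and progenitor receptors 7 of 16 were higher and 2 lower in Mpo-high cells, against 35.5% and 11.8% over all genes. With equal weights 4 of 16 were higher and 2 lower, against 25.4% and 8.86%, so the list stayed near the shares of all genes. Selplg, which encodes the P-selectin ligand of leukocytes, had medians of 48.01 CPM in Mpo-high, 1.62 CPM in middle and 1.11 CPM in Mpo-low cells and a log2 ratio of 3.04 (2.12 without HSC 23). Itgal, the gene of a leukocyte integrin chain, was at 13.96 CPM in Mpo-high cells and at 0 in all 8 Mpo-low cells. It had 5 counts in only 9 of the 35 Mpo-high cells, and HSC 37 and HSC 52 held 309 and 36.7 of its 659 counts there. Itga2b, the CD41 gene of the first blood progenitors, was at 17.2 CPM in Mpo-high and 1.73 CPM in Mpo-low cells (2.73, or 1.99 without HSC 23). Kit, the receptor of stem cell factor, had medians of 396 CPM in Mpo-high and 145.5 CPM in Mpo-low cells and a log2 ratio of 0.57, and Cd34 was at 765 CPM in Mpo-high and 750 CPM in Mpo-low cells.

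Myeloid transcription factor genes gave 5 of 13 higher and 2 lower, with a median log2 ratio of 0.39, close to the median of all genes. The shares over all genes were 35.5% and 11.8%. Spi1, the PU.1 gene, was above 0 in every cell, with medians of 266 CPM in Mpo-high, 191 CPM in middle and 187 CPM in Mpo-low cells and a log2 ratio of 0.39. Cebpa, the granulocyte factor gene, was at 0.43 CPM in Mpo-high cells and 0 in Mpo-low cells, and HSC 37 alone had 5 counts of it (11.3 CPM). Myc was at 17.7 CPM in Mpo-high and 0.38 CPM in Mpo-low cells (log2 ratio 3.75, 3.53 without HSC 23). Irf8, the monocyte factor gene, was at 8.47 CPM in Mpo-high and 0.20 CPM in Mpo-low cells, a ratio of 36.7 with exact limits of 12.5 and 179 that rests on 6 of 35 cells. Nfil3 and Id2 were the 2 that were lower (-2.07 and -1.21), and without HSC 23 both had positive ratios (0.84 and 0.15). Gfi1, the repressor gene of granulocyte progenitors, was at 38.9 CPM in Mpo-high and 32.1 CPM in Mpo-low cells, a log2 ratio of 0.27 that became -0.84 without HSC 23.

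Myeloid receptor and signalling genes gave 11 of 22 higher and 1 lower, against 35.5% and 11.8% over all genes. Without HSC 37 and HSC 52, 8 of the 19 genes still measured were higher and none lower. With all cells weighted equally and HSC 23 left out as well, 5 of 18 were higher and 2 lower. Over all genes the shares in that setting were 27.3% higher and 9.37% lower. Fcer1g, the common chain gene of Fc receptors, had medians of 20.1 CPM in Mpo-high, 8.40 CPM in middle and 3.93 CPM in Mpo-low cells and a log2 ratio of 4.51, or 2.98 without HSC 37 and HSC 52. Itgam, the CD11b gene, was at 17.3 CPM in Mpo-high and 0.57 CPM in Mpo-low cells (3.54, or 3.56 without those 2 cells) but had 5 counts in only 10 of 35 Mpo-high cells. The growth factor receptor genes Csf1r (log2 ratio 0.46) and Csf2ra (0.85) stayed below 2-fold, and Csf3r, the G-CSF receptor gene, reached 1.08 but was 0.02 without HSC 23.

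Megakaryocyte genes gave 6 of 8 higher and 1 lower, with a median log2 ratio of 1.83, or 0.77 without HSC 23. The shares over all genes were 35.5% and 11.8%, and the medians 0.47 and, without HSC 23, 0.24. Gp9, a platelet glycoprotein gene, had 5 counts in 20 of 35 Mpo-high, 9 of 22 middle and 1 of 8 Mpo-low cells and a log2 ratio of 3.36 (2.39 without HSC 23). Plek, the gene of the platelet kinase substrate pleckstrin, was at 18.4 CPM in Mpo-high and 0.07 CPM in Mpo-low cells, a ratio of 239 with exact limits of 42.8 and 9447. Nfe2, a megakaryocyte transcription factor gene, had medians of 118 CPM in Mpo-high, 51.7 CPM in middle and 18.4 CPM in Mpo-low cells (log2 ratio 1.31 with equal weights and 0.53 without HSC 23). Ppbp, a platelet chemokine gene, was the member that was lower (-1.52), and it had 5 counts in 8 of 35 Mpo-high and 2 of 8 Mpo-low cells.

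Markers of other cells that the gate could hold were mixed. Beside their counts stand the shares over all genes, 35.5% higher and 11.8% lower, or 27.1% and 11.4% without HSC 23. Of the 22 macrophage genes 20 had an entry, and their summed level had medians of 562 CPM in Mpo-high, 535 CPM in middle and 546 CPM in Mpo-low cells, carried by Ctsb and Apoe. Of the 7 with 100 counts 3 were higher and 1 lower, or 1 and 0 without HSC 23, and Cd68, the gene of a macrophage lysosome protein, had 5 counts in 12 of 35 Mpo-high and 3 of 8 Mpo-low cells. The defining macrophage genes Cd14 and C1qc were at 0 in both classes, and C1qa and Adgre1 were at or under 0.42 CPM, while Fcgr1 reached 70.2 CPM in 1 Mpo-low cell. Among 4 mast cell, basophil and eosinophil genes with an entry, 3 had 100 counts and all 3 were higher, and without HSC 37 and HSC 52 Hdc (log2 ratio 3.67) and Il1rl1 (1.59) were. Erythroid genes gave 3 of 7 higher and 1 lower, Aqp1, with a log2 ratio of -2.94. Lymphoid genes gave 5 of 10 higher and none lower, and 2 of 10 higher and 2 lower without HSC 23. Of the 15 mesenchymal and neural crest genes with an entry 4 had 100 counts, of which 2 were higher and none lower, and their summed level ran up to 563 CPM in Mpo-high and 191 CPM in Mpo-low cells. Acta2, the smooth muscle actin gene, was at 68.5 CPM in Mpo-high and 4.59 CPM in Mpo-low cells (log2 ratio 3.64, or 2.82 without HSC 23) with 5 counts in 9 of 35 and 2 of 8 cells, and Prrx1 was the other higher gene (1.20, or 0.81 without HSC 23), while Pdgfrb, Sox10 and Th were at 0 in both classes. The part of such cells in the results was not tested. Dissociation stress genes gave 4 of 14 higher and none lower, with a median of 0.02, and Notch pathway genes 2 of 8 higher and 2 lower.

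Genes of protein folding, ribosome assembly and sugar breakdown showed no common direction beyond that of all genes. Of all genes 35.5% were higher and 11.8% lower, with a median log2 ratio of 0.47. Of 20 endoplasmic reticulum folding genes 5 were higher and 1 lower, with a median log2 ratio of 0.24. Xbp1, the transcription factor gene of the unfolded protein response, was that lower gene, with 35.1 CPM in Mpo-high and 161 CPM in Mpo-low cells. Its log2 ratio of -2.17 was -1.10 without HSC 23 and, no longer 2-fold, -0.94 with equal weights. Of 18 ribosome biogenesis genes 4 were higher and 2 lower (median -0.02), of 16 glycolysis genes 5 were higher and 2 lower (0.65), and of 9 interferon and antigen presentation genes 3 were higher and 1 lower (-0.15). Gapdh had medians of 2310 CPM in Mpo-high, 1781 CPM in middle and 1413 CPM in Mpo-low cells.

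**Figure D5:**
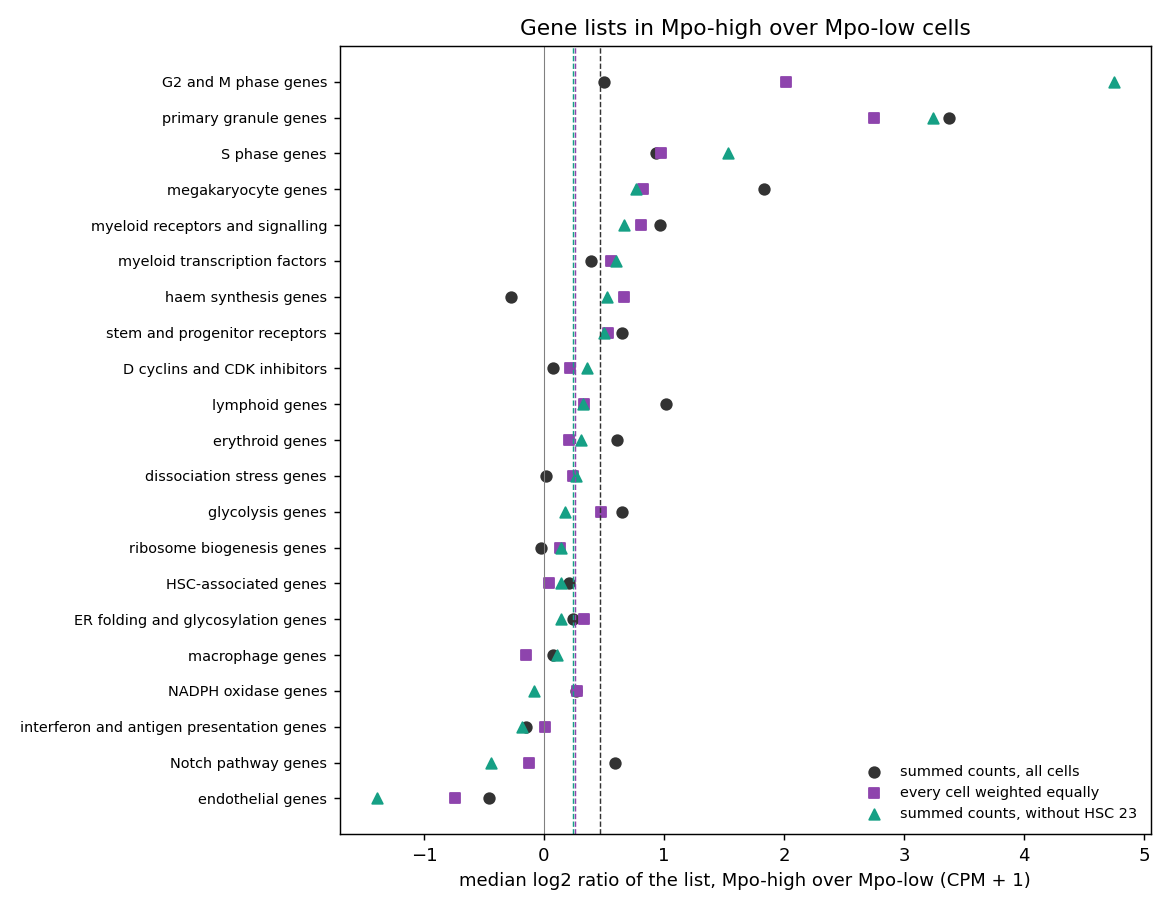
Median log2 ratio of (CPM + 1), Mpo-high over Mpo-low cells, of each gene list with at least 6 genes measured, from summed counts of all cells (circles), with every cell weighted equally (squares) and from summed counts without HSC 23 (triangles), with dashed lines at the medians of all genes under the same 3 settings (0.47, 0.26 and 0.24). The G2 and M phase list stands at 0.50, 2.02 and 4.75, the primary granule list at 3.38, 2.75 and 3.24, and the endothelial list at -0.46, -0.74 and -1.39.

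The single genes with the greatest ratios were named among those that were 2-fold apart the same way from all cells, with equal weights, in each index parity and without the deepest cell of each class. Of the 10871 genes 1493 met this as higher (13.7%) and 149 as lower (1.37%), and 962 and 144 of them also had 5 counts in at least 25% of cells on the higher side and could be named. Knstrn, the gene of a kinetochore protein at chr2:118814003-118853957 on the plus strand, had 0, 52.6 and 331 CPM in Mpo-high cells, 0, 3.36 and 263 CPM in middle cells, and 0, 0 and 0.22 CPM in Mpo-low cells. It was thus close to 0 in all 8 Mpo-low cells, HSC 23 included, and its ratio of summed CPM was 1335 with exact limits of 239 and 52720. Ska3, a further kinetochore gene, was at 44.6 CPM in Mpo-high and 0.09 CPM in Mpo-low cells. Cenpl, a centromere gene, was at 85.03 CPM in Mpo-high and 0.81 CPM in Mpo-low cells (log2 ratio 5.57, or 5.28 without HSC 23). Sapcd2, whose protein orients the spindle, was at 47.4 CPM in Mpo-high cells and at 0 in all 8 Mpo-low cells, at least 206-fold higher against the floor of 3 counts. Dscc1, a gene of sister chromatid cohesion, was at 35.5 CPM in Mpo-high and 0.04 CPM in Mpo-low cells.

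The other named higher genes have varied roles. Utp3, a gene of ribosomal RNA processing, had 5 counts in 30 of 35 Mpo-high, 13 of 22 middle and 0 of 8 Mpo-low cells and was at 64.3 CPM in Mpo-high and 0.48 CPM in Mpo-low cells (log2 ratio 5.46, or 4.99 without HSC 23). Rpp40, a subunit gene of ribonuclease P, was at 46.5 CPM in Mpo-high and 0.14 CPM in Mpo-low cells. Adnp, a chromatin regulator gene, was at 36.6 CPM in Mpo-high cells and at 0 in all Mpo-low cells, at least 159-fold higher, but had 5 counts in only 11 Mpo-high cells. Arl5c, Acbd5, Rabepk, Myo5a, Mad2l1bp and Tmem68 complete the group and had 5 counts in 12 to 22 of 35 Mpo-high cells and in none of the 8 Mpo-low cells. From summed counts Arl5c and Myo5a were higher in middle than in Mpo-high cells (130 against 118 CPM and 60.9 against 35.1 CPM). Rabepk was at 41.03 CPM in middle and 44.9 CPM in Mpo-high cells. Acbd5, Mad2l1bp and Tmem68 were lower in middle cells (23.2, 3.81 and 25.4 CPM) than in Mpo-high cells (49.3, 37.5 and 36.4 CPM).

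The 15 named lower genes each rest on 2 to 4 of the 8 Mpo-low cells. Hoxb7, a posterior Hox gene, was at 0.25 CPM in Mpo-high and 15.9 CPM in Mpo-low cells (log2 ratio -3.76, or -3.85 without HSC 23) and had 5 counts in 1 of 35 Mpo-high, 1 of 22 middle and 4 of 8 Mpo-low cells. Bmper, the gene of a secreted BMP modulator of endothelium, was at 1.67 CPM in Mpo-high and 32.8 CPM in Mpo-low cells (-3.66, or -4.78 without HSC 23) and had 5 counts in 3 Mpo-low cells. Ptprm, a receptor phosphatase gene of endothelium, was at 3.10 CPM in Mpo-high and 76.3 CPM in Mpo-low cells (-4.24, or -3.74 without HSC 23). Dchs1, a protocadherin gene, was at 0 in all 35 Mpo-high cells and at 11.5 CPM in Mpo-low cells, and Rsph9, a cilium gene, at 0.12 CPM in Mpo-high and 38.7 CPM in Mpo-low cells (-5.15, or -2.48 without HSC 23). The other 10 were Dusp8, Asah2, Cacna1a, Ranbp6, Znrd1as, Ankrd16, Faap100, Slc5a6, Slco2b1 and Angptl2, with log2 ratios from -5.13 to -3.42. Without HSC 23 these 10 ratios ran from -4.02 (Dusp8) to -1.23 (Slco2b1). With equal weights and without the 3 cells, Ranbp6 (-0.77), Faap100 (-0.82) and Slco2b1 (-0.90) were below 2-fold. Znrd1as is an antisense gene, and without strand its reads cannot be told from those of the gene on the other strand.

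Over all 65 cells, with the middle class included, the genes whose level followed Mpo most closely were Cmtm7 (Spearman correlation 0.58), Rbfa (0.56), Selenoh (0.55), Hmgb1 (0.55), Knstrn (0.53), Ddx20 (0.53), Enox2 (0.52), Gapdh (0.52), Ccnb2 (0.52) and Ccnc (0.51). The cells share 1 pool and differ in depth. The median correlation over 8405 genes was 0.10 and few genes exceeded 0.37, so these values describe a rank order and no test was made. The genes just listed all rose with total count too, with Spearman correlations from 0.23 (Ccnc) to 0.47 (Selenoh), against 0.31 for Mpo. The part of depth in this order was not tested. Cmtm7, a membrane protein gene of leukocytes, had medians of 287 CPM in Mpo-high, 66.3 CPM in middle and 147 CPM in Mpo-low cells. Hmgb1, a chromatin protein gene, had medians of 1629 CPM in Mpo-high, 1145 CPM in middle and 532 CPM in Mpo-low cells. Prtn3 had a correlation of 0.44 with Mpo.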

How the data were processed

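Single cells were sequenced by Smart-seq2, and GEO lists each cell as 1 sample. The submitters' processing notes name kallisto 0.43.1 and GRCm38 for the deposited estimated counts per gene. The deposited log2 table, used for 1 alternative, was made by the authors from these counts: its values equal the log2 of 1 plus the count scaled by a factor per cell. Annotation, filters and the source of the size factors are not given in the sources used here, nor whether counting used strand or how doublets were treated. Of 14109 entries 661 name no gene, hold 2.96% of counts and were left out of totals.

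CPM was computed here with Python 3.11.15 and pandas 2.3.3 from the 13448 entries with a symbol, summed over the cells of a class without rounding (rounded for the TMM alternative, edgeR 4.0.16, a scaling with no test). A gene needed 100 counts over both classes, and 1 CPM was added before the log2 ratio. A ratio against a class at 0 is a bound against 3 counts over the class, and with 1 to 3 counts its exact limits are given. Limits on sums are exact Poisson at 95%. They take the estimated counts as independent reads and leave out the spread between cells. Limits on shares are Clopper-Pearson at 95% and take the cells of this 1 pool as independent draws. Neither kind covers differences between embryos. Shares of cells used at least 5 counts after rounding the estimated counts and thinning each cell to 430000 counts, which left out 1 Mpo-high, 3 middle and 1 Mpo-low cell. The calls were also tried on simulated data. No result of that trial is given here, and it is no support for the calls in these cells. Gene coordinates are those of GENCODE M21 on GRCm38, and promoter windows those of RefSeq on GRCm38.p6, matched by symbol.

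Named were, in each direction, the 15 genes with the largest log2 ratio among those with 5 counts in at least 25% of cells where the level was higher and 2-fold apart the same way in the settings the report lists, without Mpo, sex-linked, mitochondrially encoded and unnamed genes, and up to 4 members a direction of each list, with its defining members. Members, lists and tests were chosen with earlier results of these data known. The alternatives varied the limits on Mpo, the minimum count, the added CPM, scaling, weights, depth and the cells used. Some single genes of the lists are not reported here.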

Additional observations from a re-analysis of the deposited data

Results flagged for a closer look

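Mpo was also found, at very low level, in cells outside the HSC gate, which the comparison did not use. Summed Mpo counts were 8.64 over the 93 Dorsal cells, 23.3 over the 89 Ventral cells and 25.5 over the 88 Mesenchymal cells, above the 3 counts that a sum of 0 allows. In CPM these sums were 0.080 (0.036 to 0.153), 0.211 (0.134 to 0.316) and 0.371 (0.241 to 0.546), against 297 CPM over the 65 HSC cells. At least 5 CPM of Mpo was found in 0 Dorsal, 0 Ventral and 2 Mesenchymal cells, of which Mesenchymal 73 had the most with 25.2 CPM.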

How the results depend on the processing

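The number of genes at least 2-fold higher in Mpo-high cells (3862) became 7932 when cells with at least 100 CPM were set against the single cell with 0 Mpo counts, 1806 when Mpo-high cells were set against all cells below 50 CPM, 2322 with the deposited log2 values, 1854 with 10 CPM added, 2028 with cells thinned to equal depth, and 2394 with equal weights and without HSC 37, HSC 52 and the cells that share an index with them. The number lower (1281) became 764 against the cell with 0 counts and 827 with 10 CPM added. In the other 32 recomputations of these 2 counts they stayed within 1.5 times. Against the cell with 0 counts, 6 of 21 named genes still measured changed sign: Angptl2 (log2 ratio 2.26), Cacna1a (2.99), Faap100 (2.53), Ranbp6 (1.01), Slc5a6 (2.62) and Slco2b1 (2.70). Against all cells below 50 CPM, Myo5a had -0.13. The cause was not tested. No paired analysis was possible because all cells come from 1 pool and carry no replicate numbers that pair them. The alternatives without HSC 23, without HSC 37 and HSC 52, and without index-sharing cells were chosen after the data were seen. With equal weights and without HSC 23, HSC 37 and HSC 52, 25 of the 28 named genes still measured were 2-fold apart the same way. The genes were named by their ratios in overlapping settings of the same cells, so this agreement was largely fixed in advance and is no support for them. The 8 Mpo-low cells limit how closely a gene seen in few of them can be placed.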
